A study of Neodesmus pupukensis with 4 samples.

Results

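In a culture of the microalgal strain UTEX2341, 27 of 14905 assembled transcript sequences were at least 2 times higher in the library taken at 88 h than in that taken at 57 h, after staying within set bounds at the earlier steps. The sample labels place the strain in the species Neodesmus pupukensis, while the series' design text names it Chlorella minutissima. Cells were grown fed-batch in shaken flasks at 25 °C and total RNA of the cells present at 14, 45, 57 and 88 h was sequenced as 1 library per time. The sources used here do not say if all harvests came from the same flask. All 4 groups share the strain and the medium, and they differ, as far as the labels say, in culture time alone.

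The 27 sequences were chosen by measured values from all 4 libraries. The level used was the RPKM, the number of reads on a sequence scaled by its length and by the library total. A sequence had to average at least 25 reads over 57 h and 88 h and to have an RPKM at 88 h at least 2 times that at 57 h. Its RPKM at 45 h had to lie between 0.5 and 1.5 times that at 14 h, and its RPKM at 57 h between 1/16 and 2 times that at 45 h. Every ratio between times was thus set in part by the choice, so the values below are a description. With 1 library per time no p-value was calculated, and each interval is a 95% exact binomial interval that covers counting error only, not differences between cultures.

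As an algal culture grows dense, light or a nutrient can come to limit division, and feeding can delay this. Many green algae store carbon under such limits as starch and as triacylglycerol, the storage lipid for which strains like this one are studied. Transcripts known to climb late in algal cultures include those of nutrient scavenging, stress protection, recycling of cell material or lipid storage. The identifiers in these data carry no gene name, function or genome position, so none of these roles could be assigned to any of the 27. They are therefore described by sequence length, which differs for each of them, and 4 are given with their identifiers.

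The deposited library totals were similar, from 11874560 to 12495251 reads. Reads summed over sequences came to between 1.27 and 1.36 times those totals, so the columns may differ in unit, or a read may count for several sequences. An identifier's first part names its component, a group of assembled sequences that may be variants of 1 gene, and the 27 sequences came from 25 of 6216 components. In each of 2 components the rule chose a pair. The pair of 3324 and 3342 bases differed by 0 to 2 reads in each library, and the pair of 4190 and 4370 bases by 27 to 70 reads. The sequences of a pair are therefore not separate observations. Counts below are of sequences and include both of each pair, except where 1 sequence per component is stated.

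Few sequences were 2-fold higher in the last library than in the one before it. Of 11767 sequences averaging 25 reads or more over 57 h and 88 h, 205 had at least 2 times the RPKM at 88 h, or 1.74%. The bound on the step from 14 h to 45 h left 34 of these, and the bound on the step from 45 h to 57 h left the 27. Over the 27, the ratio of 88 h to 57 h ran from 2.01 to 3.25 with a median of 2.22, which on the log2 scale, with 0.5 reads added to each count, is 1.15. The median log2 ratio over all 11767 sequences was -0.07. These were modest differences, since none of the 27 reached 4-fold, whereas the other 178 sequences past 2-fold had ratios of up to 11.2 and a median of 2.93. A single component held 78 of those 178, so that median rests heavily on it.

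**Figure D1:**
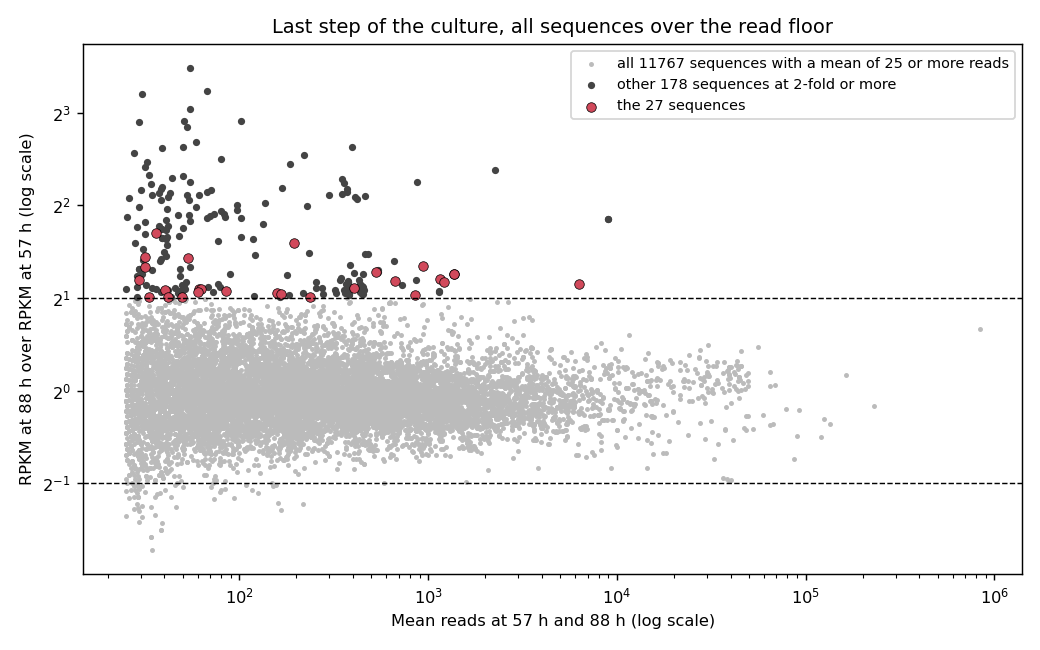
Ratio of RPKM at 88 h to RPKM at 57 h against the mean reads of both libraries, on log scales, for 11767 sequences (grey), with the other 178 sequences at or past 2-fold (black) and the 27 chosen ones (red); dashed lines mark 2-fold. The 27 lie between 2.01 and 3.25, below many of the other 178, and spread from a mean of 29.5 to 6282.5 reads.

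The courses up to 57 h were of several kinds, and a description as higher only after 57 h held for part of the 27. A group of 12, from 11 components, stayed within 1.5-fold at both earlier steps. Another 4, from 3 components, were already at least 1.5-fold higher at 57 h than at 45 h. A further 5 had been 1.5- to 2-fold lower at 1 of the earlier steps. The last 6 were at least 2-fold lower at 57 h than at 45 h before they were higher again at 88 h. These courses were defined after the values were seen and hold on the deposited scale. Within the group of 12, the change over both earlier steps could be larger than 1.5-fold. The ratio of 57 h to 14 h there ran from 0.521, in the 1608-base sequence, to 1.92, in the 592-base one. Of all 27, 5 had counting intervals that held 1 at both earlier steps, which low counts also allow. With TMM scaling, described at the end, the groups were of 9, 12, 2 and 4 sequences in the same order, and 7 of the 12 stayed within 1.5-fold at both steps. Of the 27, 20 had their highest RPKM at 88 h, or 74.1%, beside 12.7% of the 11767 sequences, and 16 had their lowest at 57 h, or 59.3%, beside 26.5%. The doubling that the rule asks for raises both counts, since it means that 57 h can never be a chosen sequence's highest time nor 88 h its lowest.

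**Figure D2:**
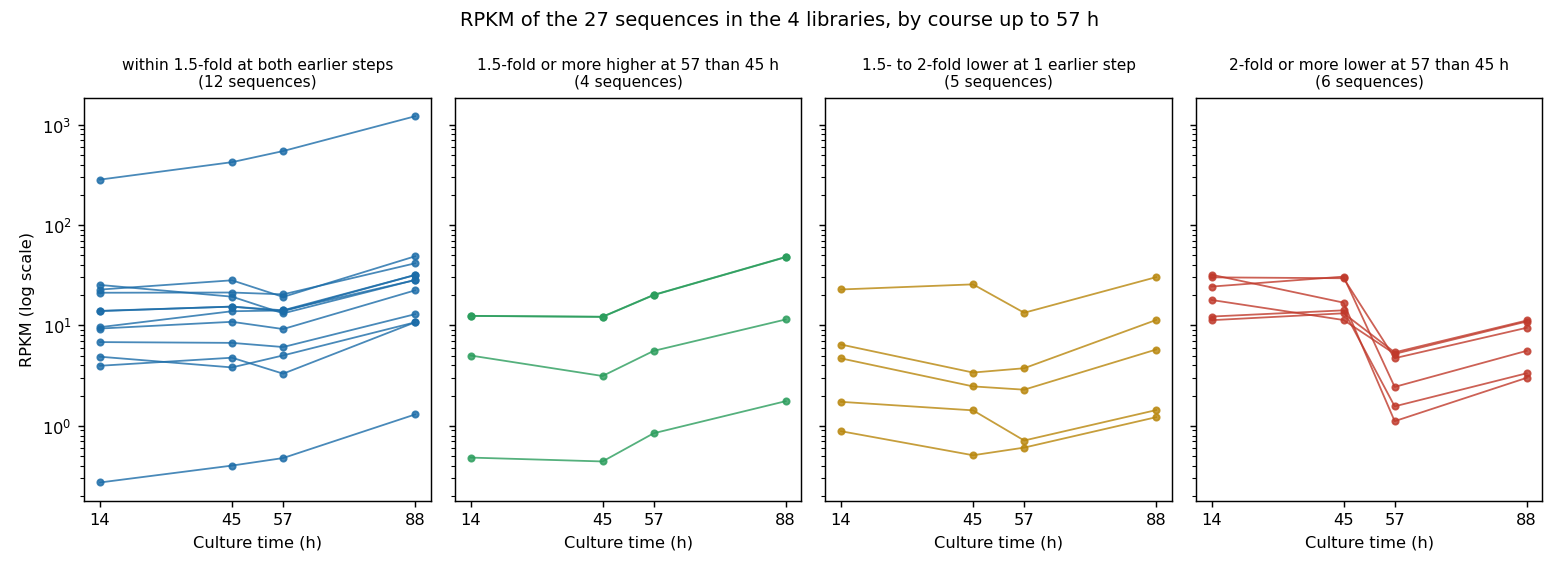
RPKM on a log scale against culture time, 1 line per sequence, in 4 panels by the course up to 57 h. The 12 sequences of the first panel stay within 1.5-fold at each step until 57 h, the 4 of the second and the 12 of the first end at their highest value, and the 6 of the last are lowest at 57 h and at 88 h still lie below their highest earlier value.

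Among the 12 sequences that stayed within 1.5-fold at each earlier step, here called the level group, the most abundant was 592 bases long. In order of time it had 2094, 2969, 3912 and 8653 reads, or RPKM values of 283.1, 422.3, 544.8 and 1210.2. Each library thus stood above the one before it. The ratio of 88 h to 57 h was 2.22 (2.14 to 2.31), but the earlier ratios of 1.49 (1.41 to 1.58) and 1.29 (1.23 to 1.35) were also above 1 over their whole counting intervals. This was the 1 sequence of the 27 for which that held at all 3 steps, and it passed the bound on 45 h by little. Its RPKM was already higher than that of 98% of all sequences at 14 h and than that of 99.3% at 88 h. It took 0.0168% of the library total at 14 h (0.016 to 0.0175%) and 0.0716% at 88 h (0.0701 to 0.0732%).

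The other well-covered sequences of the level group stood at lower levels. The 2284-base sequence had RPKM values of 22.7, 28.1, 19.2 and 48.8 in order of time, and its ratio of 88 h to 57 h was 2.54 (2.30 to 2.81). The 2761-base sequence had an RPKM of 9.30, 10.9, 9.20 and 22.3, with a ratio of 2.43 (2.12 to 2.78). In the pair of 4190 and 4370 bases the RPKM was between 13.8 and 15.4 at the first 3 times and 31.8 at 88 h for both. In all these the 3 earlier values lay within 1.5-fold of each other and the 88 h value lay above them. On the deposited scale the flattest course belonged to the 2278-base sequence, with RPKM values of 21.1, 21.3, 20.4 and 41.5. Its ratios at the earlier steps were 1.01 (0.895 to 1.13) and 0.958 (0.852 to 1.08), and that of the last step 2.04 (1.84 to 2.26). With TMM scaling its ratio of 57 h to 45 h was 1.56, outside the level group.

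The remaining 6 of the level group rested on fewer reads or drifted more. The sequence comp5496_c0_seq1, of 424 bases, had the highest ratio of 88 h to 57 h among the 27, at 3.25. Its reads were 21, 24, 17 and 55 in order of time, so the interval of 1.86 to 5.97 takes in values below 2-fold. The 2934-base sequence had 10, 14, 17 and 46 reads and a ratio of 2.72 (1.53 to 5.06). The shortest of all, at 352 bases, had 30, 28, 26 and 55 reads. These 3 were level within wide counting error at the early times. The 640-base sequence had an RPKM of 4.88, 3.82, 5.02 and 10.7. The 925-base sequence had an RPKM of 9.60, 13.8, 14.1 and 28.3, and was higher at 45 h than at 14 h by 1.44 times (1.12 to 1.86). The 1608-base sequence had its lowest RPKM at 57 h, with values of 25.3, 19.3, 13.2 and 28.4, and its level at 88 h was 1.12 times (0.993 to 1.27) that at 14 h.

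In 4 sequences the level at 57 h was already at least 1.5-fold above that at 45 h. The 3324-base form of the near-identical pair had RPKM values of 12.4, 12.2, 20.1 and 48.0 in order of time, and the 3342-base form ended at 47.8. In both, the ratio of 57 h to 45 h was 1.65 (1.47 to 1.85), and the level at 88 h was 3.86 and 3.84 times that at 14 h. With 1929 and 1928 reads at 88 h, they followed the 592-base sequence in read number. The 1612-base sequence had an RPKM of 5.01, 3.13, 5.57 and 11.5, which makes 45 h its low point. The 3813-base sequence had 23, 20, 39 and 81 reads and ratios of 1.91 (1.09 to 3.45) and 2.09 (1.41 to 3.14) at the last 2 steps. For all 4 the ratio of 57 h to 45 h had a counting interval above 1.

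The 5 sequences that were moderately lower at 1 earlier step divide by which step it was. The sequence comp6130_c0_seq1, of 2135 bases, had 172, 86, 97 and 292 reads in order of time. Its level at 45 h was 0.526 times that at 14 h (0.401 to 0.685), and its ratio of 88 h to 57 h, 3.02 (2.40 to 3.84), was the second highest of the 27. It was the one sequence whose ratio was past 3-fold with an interval wholly above 2-fold. The 648-base and 3804-base sequences were also lower at 45 h, by ratios of 0.526 and 0.576, and had 18 and 28 reads at 57 h. In the 2517-base sequence the lower level came later, with RPKM values of 22.8, 25.6, 13.4 and 30.2. The 2540-base sequence, with 55, 43, 22 and 44 reads, had the same low point at 57 h.

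The 6 sequences that were at least 2-fold lower at 57 h than at 45 h were all, on the deposited scale, below their highest earlier value at 88 h as well. Of the 24 chosen sequences averaging 25 reads or more over 45 h and 57 h, these 6 make 25%, against 42.5% of all 12717 sequences over that floor, and the rule itself bounds the number by barring larger decreases. The sequence comp4122_c0_seq1, of 2149 bases, had 859, 430, 29 and 78 reads in order of time. Its RPKM at 57 h was 0.066 times that at 45 h (0.0437 to 0.0962), and at 88 h it stood at 0.0939 times the value at 14 h (0.0735 to 0.119). The sequence comp1517_c0_seq8, of 608 bases, had 185, 221, 18 and 41 reads, with 0.0797 times the 45 h level at 57 h (0.0464 to 0.129). On the deposited scale both were thus more than 10-fold lower at 57 h than at 45 h. Their ratios of 88 h to 57 h were 2.70 (1.74 to 4.29) and 2.29 (1.29 to 4.23), with intervals that take in values below 2-fold. With TMM scaling their ratios of 57 h to 45 h were 0.107 and 0.129.

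The 2110-base sequence had an RPKM of 12.3, 14.1, 1.56 and 3.34, and the 577-base sequence 30.1, 29.5, 4.71 and 9.47. In these 4 sequences the 88 h level was between 0.0939 and 0.315 times that at 14 h. The other 2 were less far below their start. The 871-base sequence had an RPKM of 17.9, 11.3, 5.21 and 10.9, and the 1576-base sequence 11.3, 13.2, 5.39 and 11.2. On the deposited scale the last of these ended near its start, at 0.993 times the 14 h value (0.819 to 1.20). With TMM scaling neither was 2-fold lower at 57 h than at 45 h, with ratios of 0.75 and 0.66, and both had their highest level at 88 h, at 1.04 and 1.70 times that at 14 h.

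**Figure D3:**
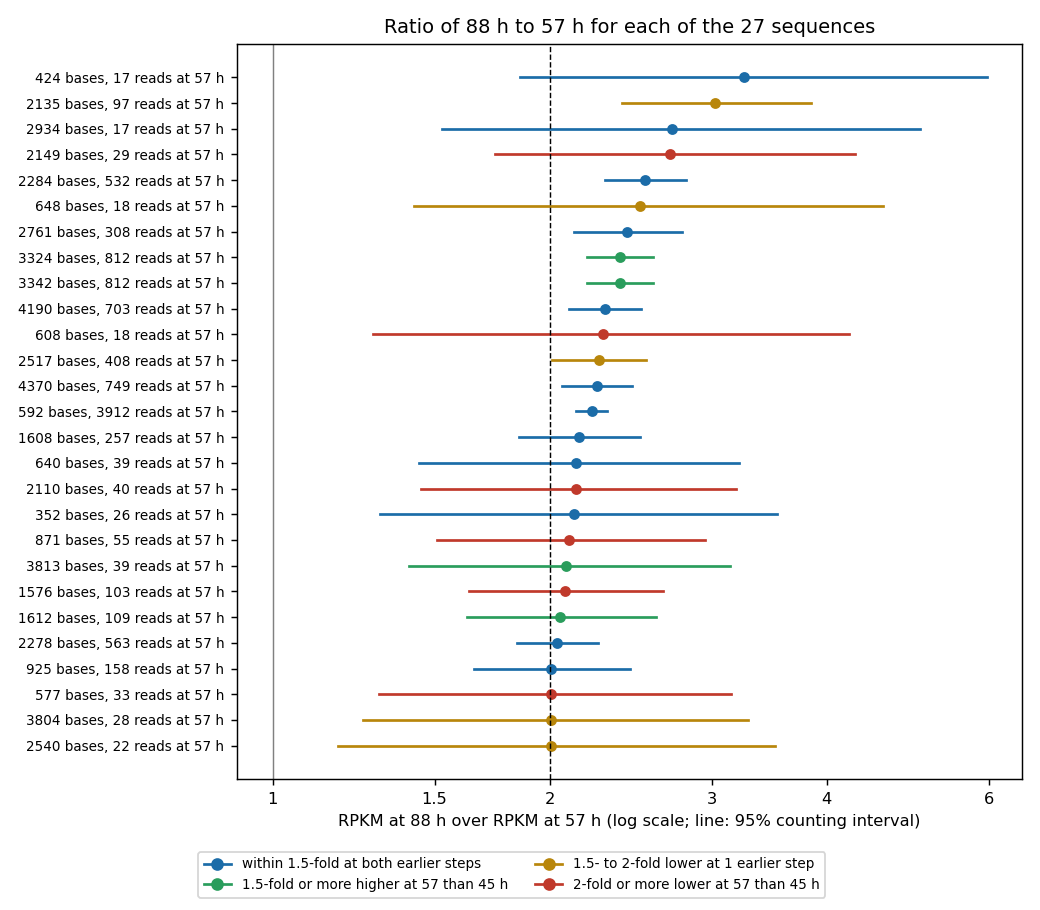
Ratio of RPKM at 88 h to RPKM at 57 h for each of the 27 sequences on a log scale, with its 95% counting interval, coloured by the course up to 57 h and labelled by length and reads at 57 h. All 27 intervals lie above 1, 9 lie wholly above the dashed line at 2-fold, and the intervals are widest where fewer than 100 reads were counted at 57 h.

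Counting error limited how firmly the doubling was measured for most of the 27. The whole interval of the ratio of 88 h to 57 h lay above 1 for all 27, above 1.5 for 18, and above 2 for 9, the sequences of 592, 2135, 2284, 2517, 2761, 3324, 3342, 4190 and 4370 bases, which come from 7 components. Fewer than 100 reads at 57 h stood behind 14 of the 27. Because the sequences were chosen on this ratio, those with few reads could also enter through a low count at 57 h or a high one at 88 h, which the intervals do not correct for. Of the 9 sequences with an interval wholly above 2-fold, 5 belonged to the level group, 2 to the group already higher at 57 h, 2 to the group moderately lower at 1 earlier step and 0 to the group at least 2-fold lower at 57 h, in which 5 of 6 had fewer than 100 reads at 57 h.

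A difference of the same size in the opposite direction was seen in a similar number of sequences, at lower counts. With the same bounds on the earlier steps, 34 sequences of 23 components had at most 0.5 times the RPKM at 88 h that they had at 57 h. None of these 34 had a counting interval wholly below 0.5, against 9 of the 27 with an interval wholly above 2. The best covered of these 34 had 306 reads at 57 h and a mean of 218 over the last 2 libraries. By that mean, 9 of the 27 had 500 reads or more, as did 3744 of the 11767. Among all 3744 sequences at that depth, 21 had at least 2 times and 1 had at most 0.5 times its 57 h level at 88 h.

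Set against the start of the culture, the 27 ended at different places. At 88 h, 13 had at least 2 times their RPKM at 14 h, or 48.1%, beside 13.8% of the 12731 sequences averaging 25 reads or more over those libraries. At least 2-fold lower were 4, or 14.8%, beside 45.3%. Against 45 h, 15 were at least 2-fold higher, beside 11.7% of 12714 sequences, and 4 at least 2-fold lower, beside 44.6%. The rule, which asked for a doubling at the last step and set bounds on the steps before it, shapes all of these counts. The 13, from 11 components, were 9 of the level group and all 4 of the group already higher at 57 h. Their ratios ran from 2.15 to 4.76. The highest, 4.76 (2.37 to 10.6), belonged to the 2934-base sequence, which had 10 reads at 14 h, and the next, 4.28 (4.08 to 4.49), to the 592-base one. The median over the 27 was 0.97 on the log2 scale, against -0.66 over the 11767 sequences that passed the read floor of the rule.

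The share of the libraries taken by these transcripts was small throughout. With 1 sequence per component, the 25 together had 8809, 9148, 8389 and 18858 reads in order of time. These are 0.0705%, 0.077%, 0.0692% and 0.156% of the library totals, the last with an interval of 0.154 to 0.158%. The first 3 values were close together and the fourth stood apart, which follows from choosing each sequence for a doubling at 88 h. Counts summed over sequences exceeded the library totals, so the percentages are relative to the stated totals only. The 592-base sequence alone made up 23.8%, 32.5%, 46.6% and 45.9% of these reads in order of time. Without it the other 24 took 0.0537%, 0.052%, 0.0369% and 0.0845%, so that 57 h was then the low point.

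In rank among all 14905 sequences, the medians of the RPKM percentiles of the 27 were 52.9, 51.9, 50.0 and 65.8 in order of time. Over the 11767 sequences that passed the read floor they were 59.6, 59.8, 60.5 and 60.5, so the 27 stood below the middle of these until 57 h and slightly above it at 88 h. At 57 h 14 of them stood above the median RPKM of all sequences, 5.38, and at 88 h 21 stood above the median of 5.52. By RPKM at 88 h the 592-base sequence came first, at 1210.2. The 2284-base sequence followed at 48.8, the 3324- and 3342-base pair at 48.0 and 47.8, and the 2278-base sequence at 41.5. The 4 lowest at 88 h, between 1.22 and 1.76, were the 2540-, 2934-, 3804- and 3813-base sequences, and all 4 came from components of more than 20 sequences.

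Length and component size were not used by the rule. The median length of the 27 was 2135 bases, with a range of 352 to 4370, against a median of 2470 over the 11767 sequences that passed the read floor. Under 1000 bases were 9 of the 27, or 33.3%, beside 14.1% of the 11767 and 26.4% of the other 178 sequences past 2-fold. Read depth was not matched: 13 of the 27 averaged under 100 reads over 57 h and 88 h, as did 3528 of the 11767. At least 2-fold higher at 88 h were 3.34% of those 3528, against 0.56% of sequences averaging 500 reads or more. Most of the 27 were alone in their component, 17 or 63%, against 23.2% of the 11767 and 27.5% of the other 178 sequences past 2-fold. Components of 10 or more sequences held 4 of the 27, or 14.8%, against 22.5% and 59% in the same order. These shares are over sequences, which are not independent within a component. Of the 178, 105 were in components of 10 or more sequences, and a single component held 78 of these. Another component held 23 of all 205 sequences past 2-fold. The 27.5% and 59% over the 178 thus rest heavily on these components. They do not show how the 27 compare with sequences past 2-fold in other components.

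The other 178 sequences past 2-fold differed from the 27 mainly at the first step. In 169 of them the RPKM at 45 h was at least 1.5 times that at 14 h, and in 2 it was at most 0.5 times. In 16 the RPKM at 57 h was at most 1/16 of that at 45 h and in 5 it was at least 2 times, and 14 of the 178 failed the bounds on both steps. The median log2 ratio of 45 h to 14 h was 1.69 in the 178 and -0.02 in the 27, which is what the rule selected for. A single component of 95 sequences held 79 of all 205 sequences past 2-fold, or 38.5%, and 1 of the 27, the 2934-base sequence. The component with the next most held 23 of the 205, whereas 76 of the 90 components concerned held 1 each. Values over the 178 therefore rest heavily on a few components.

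**Figure D4:**
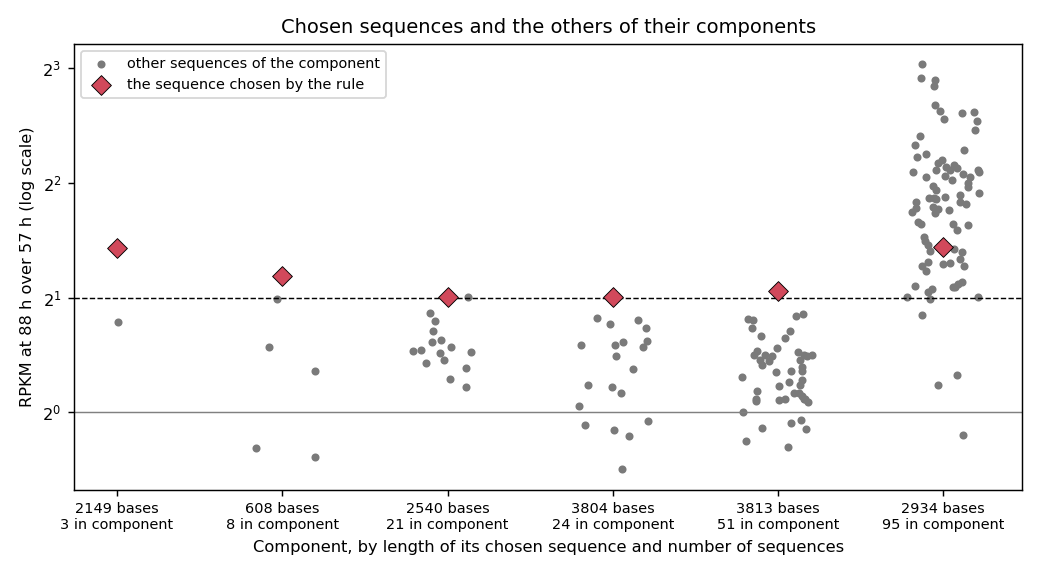
Ratio of RPKM at 88 h to RPKM at 57 h, on a log scale, of the chosen sequence (red diamond) and of the other sequences averaging 25 reads or more (grey) in the 6 components that hold both; dashed line at 2-fold. In the component of 95 sequences most of the others lie above the chosen one, and in the other 5 components nearly all lie below it. The choice on this ratio favours the latter.

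In 6 components the rule chose 1 sequence and left others with enough reads, 173 in all. Their median ratio of 88 h to 57 h was 1.76, but the component of 95 sequences decides this value. There 78 of 83 others had at least 2 times their 57 h level at 88 h, with a median ratio of 3.57 and a highest of 8.20, above the 2.72 of the chosen 2934-base sequence. In 81 of the 83 the RPKM at 45 h was at least 1.5 times that at 14 h, which kept them out, and the chosen one was at 1.47. In the other 5 components 77 of 90 sequences were higher at 88 h, 1 was at least 2-fold higher, and the median ratio was 1.35. The chosen sequence was at the top of its component in each of these 5, level in 1 case with another at 2.01. The rule favours this, since another sequence at 2-fold or more within the other bounds would also have been chosen. Reads may be shared within a component, so these sequences are not separate observations.

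In the component of comp1517_c0_seq8 the sequences divided by length. The 3 others of 814, 1430 and 1534 bases, all with enough reads, were also low at 57 h, at 0.0846 to 0.138 times their 45 h level, and had ratios of 88 h to 57 h of 1.98, 1.49 and 1.28 in order of length. The 2 longest, of 3067 and 3171 bases, stood the opposite way, at 1.58 and 1.56 times the 45 h level at 57 h, followed by ratios of 0.809 and 0.764. Among the sequences with enough reads, the lower level at 57 h was thus seen in the 4 shortest. In the component of comp4122_c0_seq1, the 1667-base sequence had 836, 404, 25 and 43 reads and a ratio of 1.73, with a 57 h level past the 1/16 bound.

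Values on either side of the bounds were close. Just inside the bound of 2-fold lay 4 sequences, of 577, 925, 2540 and 3804 bases, whose reads at 88 h were exactly 2 times those at 57 h and whose ratio was 2.01 through the smaller library total at 88 h. Just outside lay sequences of 554 and 585 bases, each with 44 reads at 57 h, 87 at 88 h and a ratio of 1.99, and the 814-base sequence of the component of comp1517_c0_seq8, with 35 and 69 reads and 1.98. Between 1.5 and 2 times were 195 sequences that met every other bound. Just over the read floor was comp1517_c0_seq8, with a mean of 29.5 reads over the last 2 libraries, and just under it a 593-base sequence with 13 reads at 57 h and 35 at 88 h. A further 109 sequences met all bounds but the read floor. At the bound on 57 h, the closest sequence above was at 2.16 times its 45 h level, with 207 reads at 57 h and 437 at 88 h.

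The rule barred 2-fold higher levels at 57 h than at 45 h on the deposited scale only, and counts differed when the libraries were scaled otherwise. With TMM scaling, which takes most sequences as unchanged on average, the median of all sequences moves by 0.70 on the log2 scale at the step from 45 h to 57 h and by 0.06 at the step from 57 h to 88 h, and that of 88 h to 14 h by 0.77. It multiplies every ratio of 88 h to 57 h by the same factor, which was above 1. That all 27 stayed at least 2-fold higher at 88 h than at 57 h was thus fixed in advance. However, 6 of the 27 were then already at least 2-fold higher at 57 h than at 45 h, with ratios from 2.09 to 3.10. They were the sequences of 592, 640, 1612, 3324, 3342 and 3813 bases. On the deposited scale none of the 27 was, because the rule allowed none. At least 2-fold lower at 57 h than at 45 h were 4 rather than 6, and 23 rather than 20 had their highest level at 88 h. Median-of-ratios scaling gave the same counts for each of these. Against 14 h, 19 rather than 13 had 2 times the level or more at 88 h, and 3 rather than 4 had 0.5 times or less. The 2149-, 608- and 2110-base sequences were the 3, at 0.16, 0.39 and 0.47 times their 14 h level.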

How the data were processed

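RNA was sequenced from 4 culture times of 1 algal strain, 1 library each. Per the submitters' processing notes the aligner was BWA, with no version stated. The sources used here give no reference, counting method, strand setting or treatment of reads matching several sequences. The authors deposited, per the file headers, a read count, an RPKM value, a library total and a length for each sequence. The deposited RPKM equalled the reads scaled by length and stated library total, to within 3.8e-11. The rule for the 27 sequences was applied to these counts and RPKM values as deposited. The sequences, comparisons and alternatives were chosen with earlier results of these data known. Intervals of ratios are exact conditional binomial (Clopper-Pearson) intervals at the 95% level. Log2 ratios used 0.5 added reads. Background shares count all sequences averaging 25 reads or more over the 2 libraries compared. Identifiers are printed for the 2 sequences with the highest ratio of 88 h to 57 h and the 2 with the lowest of 57 h to 45 h. The rule and intervals were also run on simulated counts with counting error alone and no true change before 88 h. That simulation cannot speak to reads counted on several sequences or to differences between cultures. No test between times was made, since each has 1 library. Scaling factors came from edgeR 4.0.16 in R 4.3.3, and all else from Python 3.11.15 with scipy 1.17.1, pandas 2.3.3, matplotlib 3.10.9 and numpy 2.4.6.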

Additional observations from a re-analysis of the deposited data

How the results depend on the processing

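The rule gave 27 sequences in 25 components. The number was 67 in 60 components with a floor of 10 reads, 14 in 12 with a floor of 100, 222 in 168 with a rise of 1.5 times, 2 in 2 with a rise of 3 times, and 9 in 7 with the whole counting interval above 2-fold. The median log2 ratio of 88 h to 57 h was 0.70 and 1.63 with rises of 1.5 and 3 times. That of 88 h to 14 h turned negative, at -0.086 with the floor of 10 reads and -0.13 with the rise of 1.5 times. With rises of 1.5 and 3 times and the whole interval, 39 of 222, 1 of 2 and 7 of 9 were at least 2-fold higher at 88 h than at 14 h. Of all sequences averaging 25 reads or more over those libraries, 13.8% were. With the rise of 1.5 times the share thus lay much nearer to that of all sequences than the 48.1% of the 27 did. At least 2-fold lower at 57 h than at 45 h were 33 with the floor of 10, 1 with the floor of 100, 94 with the rise of 1.5 times, and 0 with the rise of 3 times, with the whole interval or with 57 h held within 2-fold of 45 h. The median log2 ratio over the other sequences of their components, 0.81, went to 1.35 with TMM, 1.37 with median-of-ratios scaling, 1.37 with the sum of counts, 0.10 and 0.36 with floors of 10 and 50, 0.14 with the rise of 1.5 times, and 1.55 with 5 reads added, and could not be taken in the settings that left no such sequence. This median moves mostly with which components count. TMM itself shifts each log2 ratio of 88 h to 57 h by 0.06. With TMM the 3813-base sequence no longer met the rule, so the 48 others of its component, with a median ratio of 1.28, dropped out. TMM kept 21 of the 27 and added 6. Median-of-ratios scaling kept 21 and added 7. Median length stayed between 1279.5 and 2761 bases. No library could be left out, and no paired analysis was possible because the times share no replicate beyond the first.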

Other observations

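The 6 sequences that met the rule with TMM scaling but not on the deposited scale were 554 to 1957 bases long. Of these, 5 missed the deposited bound of 2-fold narrowly, with ratios of 88 h to 57 h from 1.92 to 1.99. The sixth, of 678 bases, had 357, 258, 15 and 48 reads in order of time, and its deposited ratio of 57 h to 45 h, 0.0569, lay just past the 1/16 bound. Its ratio of 88 h to 57 h was 3.21 (1.77 to 6.18). A further sequence kept out by that bound, of 2787 bases, had 1049, 1065, 12 and 47 reads, with 3.93 times as high an RPKM at 88 h as at 57 h (2.05 to 8.15).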
